A study of Sorghum bicolor with 96 samples.

Results

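Transcript levels of 6 genes of C4 photosynthesis were followed through the day, and after 1 h of cold or heat, in leaves of sorghum (Sorghum bicolor), a C4 cereal. The 6 genes were chosen by name and not by a measured value, out of 34129 genes in the deposited table of counts. Earlier results of these data were known when they were chosen. In the order of the cycle they were carbonic anhydrase (CA, Sobic.003G234200), phosphoenolpyruvate carboxylase (PEPC, Sobic.010G160700), NADP-malate dehydrogenase (NADP-MDH, Sobic.007G166300), NADP-malic enzyme (NADP-ME, Sobic.003G036200), the small subunit of Rubisco (RbcS, Sobic.005G042000) and pyruvate phosphate dikinase (PPDK, Sobic.009G132900). All 6 passed the filter on low counts in both experiments. The files carry identifiers only, so the enzyme names are those under which the genes were selected, and other genes of the pathway could not be picked out by name.

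In C4 grasses of this kind, carbon is first fixed in mesophyll cells and released again beside Rubisco in the bundle sheath. CA turns CO2 into bicarbonate, PEPC joins bicarbonate to phosphoenolpyruvate, and NADP-MDH reduces the resulting oxaloacetate to malate in the mesophyll chloroplast. NADP-ME releases the CO2 from malate in the bundle sheath chloroplast, where Rubisco, of which RbcS is the nuclear-encoded small subunit, fixes it again. PPDK regenerates phosphoenolpyruvate from pyruvate. Many photosynthesis genes are known to follow the light and the circadian clock.

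The plants grew under days of 30 °C and nights of 20 °C. Their leaves were taken as controls or following a stress of 1 h, at 10 °C in the cold experiment and at 42 °C in the heat experiment. The 4 sampling times were zeitgeber time (ZT, hours since lights on) 1, 6, 9 and 15. The treatment text gives ZT0 for the earliest of them and the other labels give ZT1, which is used here. ZT15 lay in the night, so the step from the growth temperature to 10 °C or 42 °C was not the same there as by day. Each experiment had its own controls and paired RTX430, which the submitters call sensitive to temperature, with a genotype they call tolerant, SC224 for cold and Macia for heat. The 96 libraries formed 32 groups of 3, described by the labels as biological replicates. No transgene or mutation is named for any group.

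Several facts about the libraries bear on what follows. Library totals ran from 1059841 to 11545393 counts, with a median of 3642164.5. The label RTX430 does not stand for the same expressed genes in both experiments: 250 genes had a median above 3 CPM (counts scaled to a common library total) under one of these labels and below 0.05 CPM under the other, against 6 genes between cold SC224 and heat RTX430. RTX430 is therefore used as a label within its experiment only. Of the heat RTX430 controls at ZT15, replicate 1 carried the 59 marker genes of cold RTX430 at a summed 415 CPM. It carried the 45 marker genes of Macia at 300 CPM and is called the mixed control here. At ZT15 the cold RTX430 controls held their own markers at 917.3, 966.5 and 939.8 CPM. The Macia controls held theirs at 838.1, 769.4 and 837.8 CPM. The mixed control thus reached a large part of these levels, and what part of it was heat RTX430 was not tested. Where the value of a test of a single gene at ZT15 that includes the mixed control is printed, so is the value without it. Without the mixed control the joint tests called as many of the 6 genes as with it. Cold SC224 control replicate 1 at ZT1 carried the same markers at 130 and 194 CPM. The ZT1 controls of cold RTX430 held their own at 393.9, 518.3 and 581.2 CPM, and those of Macia at 268.5, 357.2 and 337.5 CPM. Without this SC224 library the counts of calls for SC224 in the cold response and in the joint test of time of day were the same. So was the count from ZT1 to ZT9. Among the stressed heat RTX430 libraries at ZT1, replicate 2 carries ZT2 in some of its labels and was kept at ZT1 on the strength of its title.

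The share of a library's counts that fell on a gene is given in percent. A share depends on transcript length as well as abundance, so it is compared between libraries and not between genes. Counting error was small beside the spread between replicates: the 95% Wilson interval reached from 0.345% to 12.7% of the share to either side, with a median of 1.47%, and covers counting error only. Ranked by counts, which are not corrected for length, PPDK was among the 100 genes with the most counts in all 96 libraries and first in 38. PEPC was in the top 100 in 90 and first in 6. CA ranged from rank 3 down to rank 2021.

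In control leaves the 6 genes together took a large part of the counts early in the light period and much less at ZT9. In cold RTX430 controls their summed share at ZT1, ZT6, ZT9 and ZT15 was 11.6% ± 1.55, 6.152% ± 1.57, 1.66% ± 0.561 and 4.27% ± 1.44 (SD, n = 3 at each time, here and for all group means). Cold SC224 controls held 10.9% ± 0.563, 6.86% ± 1.30, 2.23% ± 0.687 and 3.19% ± 0.514 at the same times. Macia controls held 9.47% ± 1.34, 6.04% ± 2.49, 1.57% ± 0.265 and 3.64% ± 0.866. Heat RTX430 controls had the flattest course, with 6.70% ± 0.991, 5.27% ± 1.73, 2.15% ± 0.642 and 3.89% ± 1.84. Without the mixed control the last of these values was 3.49%. At ZT1 the summed share was thus 6.95, 4.91, 6.01 and 3.12 times that at ZT9 in cold RTX430, cold SC224, Macia and heat RTX430.

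**Figure D1:**
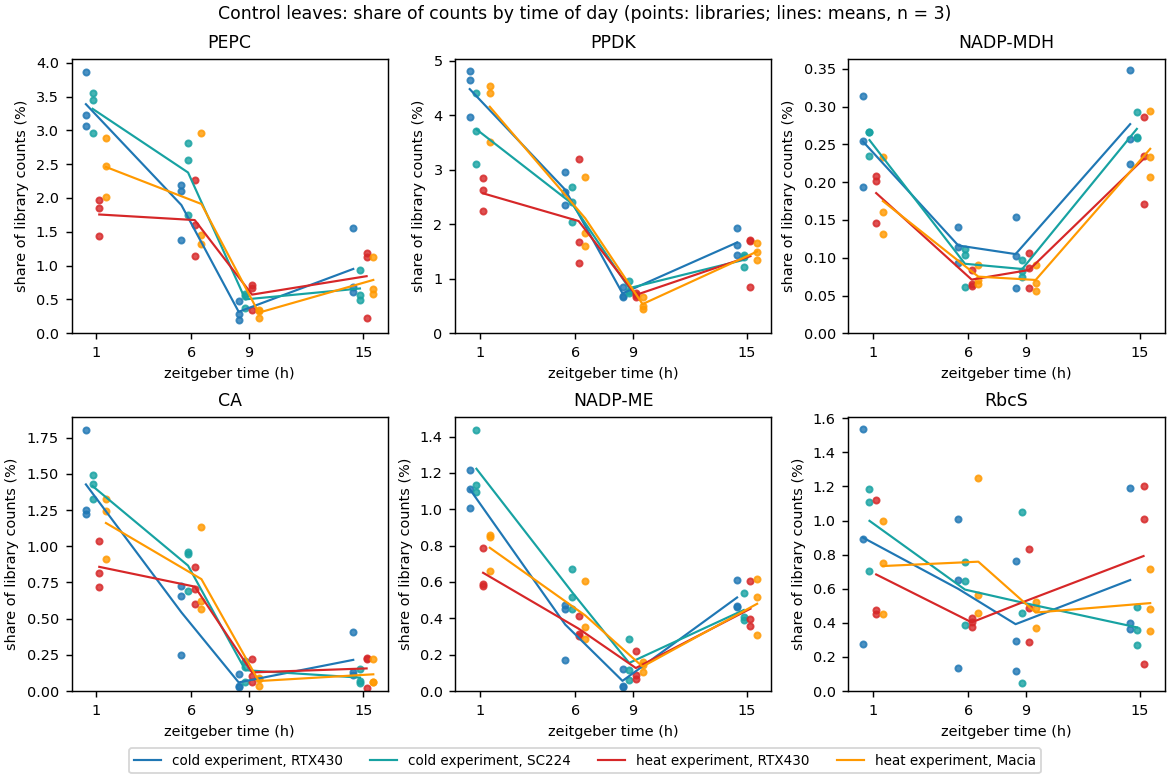
Share of library counts (%) of each gene in control leaves against zeitgeber time (h); points are single libraries, lines join the means of 3, colours are the experiment and genotype label, and points are shifted sideways for clarity. CA, PEPC, NADP-ME and PPDK were high at ZT1 and lowest or near their lowest at ZT9, NADP-MDH was low at ZT6 and ZT9 and high again at ZT15, and RbcS libraries of a group were widely spread.

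Time of day was tested in the controls of each label with edgeR's quasi-likelihood test on counts scaled by trimmed mean of M values (TMM), with p-values adjusted by Benjamini-Hochberg over all genes tested and a call at an adjusted p under 0.05. In the joint test of all 4 times, 5 of the 6 genes were called in cold RTX430, where 50.5% of all genes were. The count was 5 of 6 in cold SC224 (52.3% of all genes), 5 of 6 in Macia (46.2%) and 4 of 6 in heat RTX430 (47.8%). The count of members stands against that background, in which calls were common. RbcS was not called in any label, and PEPC was not in heat RTX430, with an adjusted p of 0.070 in edgeR. DESeq2 called both, RbcS in cold SC224 and PEPC in heat RTX430, and RbcS in cold SC224 was also called with the replicate number as a block. Fewer cells of a type and less RNA per cell cannot be told apart in such whole-leaf values.

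From ZT1 to ZT9, 5 of 6 genes fell in cold RTX430 (18.7% of all genes were called lower), 5 in cold SC224 (20.6%), 5 in Macia (15.9%) and 4 in heat RTX430 (16.6%). The median log2 difference of the 6 genes was -3.71, -3.19, -3.34 and -1.92 in these labels, while that of all genes lay between 0 and 0.05. TMM factors averaged 0.710 in the cold RTX430 controls at ZT1 and 1.42 at ZT15, and log2 differences between these times are therefore larger than the ratios of shares.

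CA, which supplies bicarbonate to the cycle, had the widest range over the day. Its cold RTX430 controls held 1.80%, 1.25% and 1.22% of the counts at ZT1, 0.655%, 0.251% and 0.725% at ZT6, 0.117%, 0.0288% and 0.0330% at ZT9 and 0.406%, 0.111% and 0.130% at ZT15. The groups at ZT1, ZT6 and ZT9 did not overlap, and ZT15 lay between ZT6 and ZT9 with some overlap on either side. From ZT1 to ZT9, CA fell by 5.21 on the log2 scale (SE 0.85, adjusted p = 5.82e-06, edgeR). The change was -3.96 in cold SC224 (SE 0.80, adjusted p = 0.00012), -4.65 in Macia (SE 0.95, adjusted p = 0.00019) and -2.82 in heat RTX430 (SE 0.87, adjusted p = 0.011), all in edgeR. In cold SC224 the ZT15 mean, 0.0928% ± 0.0536, was below the ZT9 mean of 0.144% ± 0.0759, a difference that was not called.

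PEPC, the entry enzyme of the cycle, followed nearly the same course. Its share in cold RTX430 controls was 3.87%, 3.06% and 3.23% at ZT1, 2.20%, 1.38% and 2.11% at ZT6, 0.475%, 0.194% and 0.286% at ZT9 and 1.55%, 0.612% and 0.686% at ZT15. The 4 times followed each other without overlap except between ZT6 and ZT15. From ZT1 to ZT9 the log2 change of PEPC was -4.08 (SE 0.63, adjusted p = 2.01e-06, edgeR) in cold RTX430, -3.44 (SE 0.61, adjusted p = 1.86e-05) in cold SC224 and -3.61 (SE 0.85, adjusted p = 0.00099) in Macia. In heat RTX430 the ZT1 controls held 1.97%, 1.44% and 1.85%, and the ZT9 controls 0.343%, 0.663% and 0.709%. These groups did not overlap, yet the log2 difference of -1.78 (SE 0.79) was not called (adjusted p = 0.076, edgeR).

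NADP-MDH, which makes malate from oxaloacetate, followed a different course. In Macia controls its share was 0.160%, 0.132% and 0.233% at ZT1, 0.0648%, 0.0901% and 0.0702% at ZT6, 0.0555%, 0.0664% and 0.0900% at ZT9 and 0.233%, 0.206% and 0.294% at ZT15. The ZT6 and ZT9 libraries overlapped and all lay below those of ZT1 and ZT15. The mean share at ZT15 was 2.64, 3.18, 2.75 and 3.46 times that at ZT9 in cold RTX430, cold SC224, heat RTX430 and Macia. On the TMM scale the rise from ZT9 to ZT15 was 1.48 in Macia (SE 0.39, adjusted p = 0.012, edgeR) and 1.28 in cold SC224 (SE 0.40, adjusted p = 0.027). It was 1.04 (adjusted p = 0.074) in cold RTX430 and 0.92 (adjusted p = 0.13) in heat RTX430, neither of them called, the latter 0.87 (adjusted p = 0.24) without the mixed control. Mean shares at ZT1 and ZT15 were close, with a ratio between 0.717 and 0.945, whereas on the TMM scale cold SC224 was lower at ZT15 than at ZT1 by a called difference of -1.04 (SE 0.40, adjusted p = 0.031, edgeR). Without control replicate 1 at ZT1, which carried markers of other labels, that difference was -0.99 and not called (adjusted p = 0.068). Under the stresses the trough remained in the shares: ZT15 was 2.50 to 4.67 times ZT9 in the stressed groups.

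NADP-ME, the decarboxylase of the bundle sheath, fell to ZT9 and had partly returned by ZT15. In cold RTX430 controls its share was 1.22%, 1.01% and 1.11% at ZT1, 0.451%, 0.173% and 0.474% at ZT6, 0.120%, 0.0263% and 0.0214% at ZT9 and 0.610%, 0.469% and 0.465% at ZT15. The ZT9 libraries were below all others, and only ZT6 and ZT15 overlapped. The change from ZT1 to ZT9 was -4.90 (SE 0.71, adjusted p = 8.02e-07, edgeR) and that from ZT9 to ZT15 was 2.78 (SE 0.65, adjusted p = 0.0025). In the other 3 labels the mean at ZT15 was 2.88 to 3.58 times that at ZT9, and the rise was not called, nor was it in heat RTX430 without the mixed control (1.27, adjusted p = 0.19, edgeR).

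RbcS replicates were widely spread beside the differences between times. In cold RTX430 controls it held 1.53%, 0.893% and 0.274% at ZT1 and 0.766%, 0.118% and 0.293% at ZT9, and the 2 times overlapped. Its ZT1 mean was 2.30, 1.92, 1.59 and 1.28 times the ZT9 mean in cold RTX430, cold SC224, Macia and heat RTX430. The joint test gave adjusted p-values of 0.22, 0.088, 0.35 and 0.88 in these labels (edgeR). The single pair of times that was called was ZT15 against ZT1 in cold SC224, at -2.53 (SE 0.93, adjusted p = 0.026, edgeR), where all 3 ZT15 libraries were below all ZT1 libraries. Without control replicate 1 at ZT1 it was -2.37 and not called (adjusted p = 0.054).

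PPDK, which regenerates the acceptor of the cycle, had the smallest spread between replicates of the 6 genes in the cold experiment. In cold RTX430 controls it held 4.65%, 3.97% and 4.81% at ZT1, 2.96%, 2.35% and 2.59% at ZT6, 0.679%, 0.851% and 0.665% at ZT9 and 1.93%, 1.44% and 1.62% at ZT15. The 4 times did not overlap, in the order ZT1, ZT6, ZT15, ZT9. The change from ZT1 to ZT9 was -3.34 (SE 0.36, adjusted p = 1.77e-09, edgeR) here, -2.95 (SE 0.35, adjusted p = 1.69e-08) in cold SC224, -3.54 (SE 0.53, adjusted p = 1.60e-06) in Macia and -2.06 (SE 0.49, adjusted p = 0.0013) in heat RTX430. The partial return at ZT15 was not called in any label, with 0.91 (adjusted p = 0.059) the closest, in cold RTX430. Nor was it called in heat RTX430 without the mixed control (0.32, adjusted p = 0.82, edgeR).

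The 6 genes were not found to differ in level between the genotypes of an experiment. Averaged over the 4 times of the controls, 0 of 6 were called between cold SC224 and cold RTX430, where 20.5% of all genes were, and 0 of 6 between Macia and heat RTX430, where 13.3% were (edgeR). At an unadjusted p under 0.05 the counts were 0 and 0, and DESeq2 also called 0 and 0 by adjusted p. The difference closest to a call was NADP-ME in the cold experiment, higher by 0.48 in SC224 (SE 0.30, adjusted p = 0.30, edgeR). Leaving out cold RTX430 ZT9 control replicate 1 gave 1 call.

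Courses over the 16 group means of an experiment were compared by Pearson's r of log2(CPM + 1), computed apart for cold and heat and given as a description. PEPC and CA had r = 0.992 for cold and 0.924 for heat, and PPDK and NADP-ME had 0.937 and 0.949. Ranked by the lower of the 2 values among 9057 genes of at least 10 CPM, NADP-ME was 9th in likeness to PPDK, PPDK was 8th in likeness to NADP-ME, and PEPC was 13th in likeness to RbcS. NADP-MDH was least like the others, with r between 0.462 and 0.778 for cold and between 0.226 and 0.780 for heat. The gene most like CA was Sobic.004G238600 (r = 0.979 and 0.977), and the gene most like NADP-MDH was Sobic.001G135100 (r = 0.943 and 0.968); the files give no name for either.

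**Figure D2:**
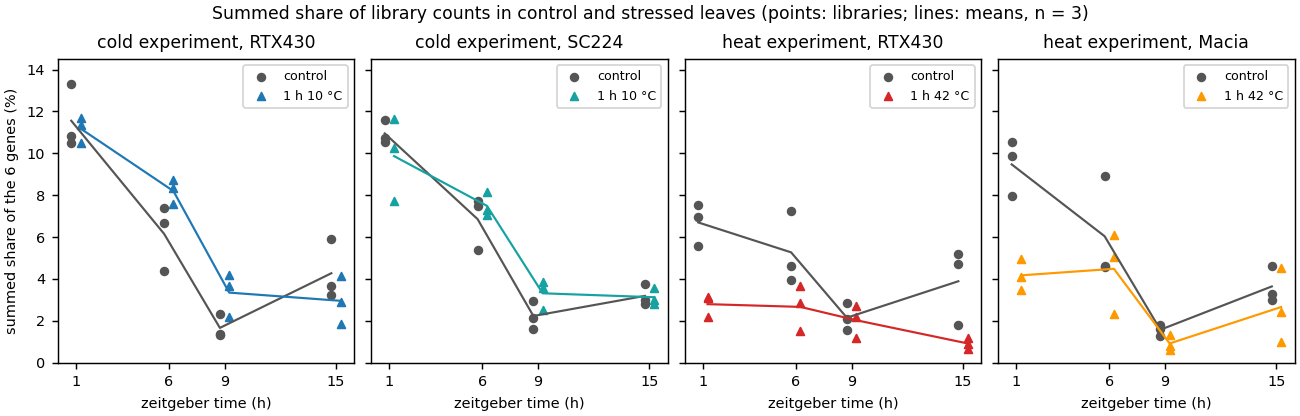
Summed share of library counts (%) of the 6 genes against zeitgeber time (h), in controls (circles) and after 1 h of stress (triangles); points are libraries and lines join the means of 3, with a panel for each experiment and genotype label. Heat libraries at ZT1 sat below their controls in both labels, cold libraries of RTX430 at ZT6 sat above theirs, and the RTX430 heat libraries at ZT15 fell to a mean of 0.921%.

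After 1 h at 10 °C no response of the 6 genes was called at any time. In cold RTX430, 0 of 24 tests (6 genes at 4 times) were called in edgeR, 4 passed an unadjusted p under 0.05, and DESeq2 called 1. In cold SC224, 0 of 24 were called, 2 passed unadjusted, and DESeq2 called 1. Among all genes 6.59%, 3.2%, 2.13% and 1.0% were called at ZT1, ZT6, ZT9 and ZT15 in RTX430, and 11.1%, 2.84%, 2.71% and 1.1% in SC224. The largest cold differences were rises at ZT9, the time of the lowest summed share in the controls. The median log2 fold change of the 6 genes at ZT9 was 1.31 in RTX430 and 0.86 in SC224, and that of all genes was 0 in both. At ZT6 the medians were 0.81 and 0.30, at ZT1 -0.16 and -0.38, and at ZT15 -0.75 and 0.11.

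NADP-ME at ZT9 in cold RTX430 came closest to a call. Its controls held 0.120%, 0.0263% and 0.0214% and its stressed libraries, replicates 1, 3 and 4, held 0.255%, 0.0532% and 0.406% of the counts. The groups overlapped, with control replicate 1 above stress replicate 3. The log2 fold change was 2.15 (SE 0.63, adjusted p = 0.068, edgeR). It passed the threshold with total-count scaling (2.09, adjusted p = 0.026), in DESeq2 (2.12, adjusted p = 0.016), without control replicate 1 (3.66, adjusted p = 0.0019) and without stress replicate 3 (2.65, adjusted p = 0.0079).

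Of the other genes at ZT9 in cold RTX430, CA had a log2 fold change of 2.04 (SE 0.74, adjusted p = 0.20), PEPC 1.63 (SE 0.57, adjusted p = 0.17) and RbcS 0.98 (SE 0.89, adjusted p = 0.71), all in edgeR. Without control replicate 1, CA reached 3.25 (adjusted p = 0.042), and without stress replicate 3, PEPC reached 2.01 (adjusted p = 0.048). PPDK held 0.679%, 0.851% and 0.665% in the controls and 1.03%, 1.31% and 1.07% after cold, so its groups did not overlap, at a fold change of 0.75 (SE 0.33, adjusted p = 0.35, edgeR). NADP-MDH was at -0.01 (SE 0.39).

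At ZT9 in cold SC224 all 6 fold changes were above 0. CA controls held 0.208%, 0.164% and 0.0601%, and the stressed libraries 0.310%, 0.217% and 0.441%, without overlap. The fold change of CA was 1.42 (SE 0.73, adjusted p = 0.42), that of PEPC 1.2 (SE 0.56, adjusted p = 0.36) and that of PPDK 0.84 (SE 0.33, adjusted p = 0.23), all in edgeR; DESeq2 called PPDK (0.80, adjusted p = 0.027).

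At ZT6 in cold RTX430, the shares of CA, PEPC and NADP-ME were higher in all stressed libraries than in any control, for 3 of 6 genes where 4.9% of all genes did so. CA held 0.655%, 0.251% and 0.725% in controls and 0.926%, 1.08% and 0.903% after cold, and PEPC 2.20%, 1.38% and 2.11% against 2.87%, 2.56% and 2.26%. Control replicate 2 was the lowest library for both genes. Their log2 fold changes of 1.08 (SE 0.72) and 0.72 (SE 0.56) were not called (adjusted p = 0.53 and 0.61, edgeR). Elsewhere in the cold experiment shares without overlap were found for 0 to 2 genes at a time. In RTX430 NADP-ME was higher at ZT1 (with 16.6% of all genes), PPDK was higher at ZT9 (4.99%) and NADP-ME was lower at ZT15 (5.11%). In SC224 CA was lower at ZT1 (5.84%) and higher at ZT6 (4.85%), and CA and PEPC were higher at ZT9 (4.44%). Without SC224 control replicate 1 at ZT1, which carried markers of other labels, PEPC was lower at ZT1 as well (0.78 times the control mean). The share of all genes was not counted without that library.

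The cold response was not found to differ between times or genotypes: the joint tests called 0 of 6 genes between times in RTX430 (2.3% of all genes), 0 in SC224 (5.97%) and 0 between genotypes (0.00548%). Unadjusted, 3, 0 and 0 of these tests passed in edgeR, and DESeq2 called PPDK alone in each of the tests between times, and 0 between genotypes.

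**Figure D3:**
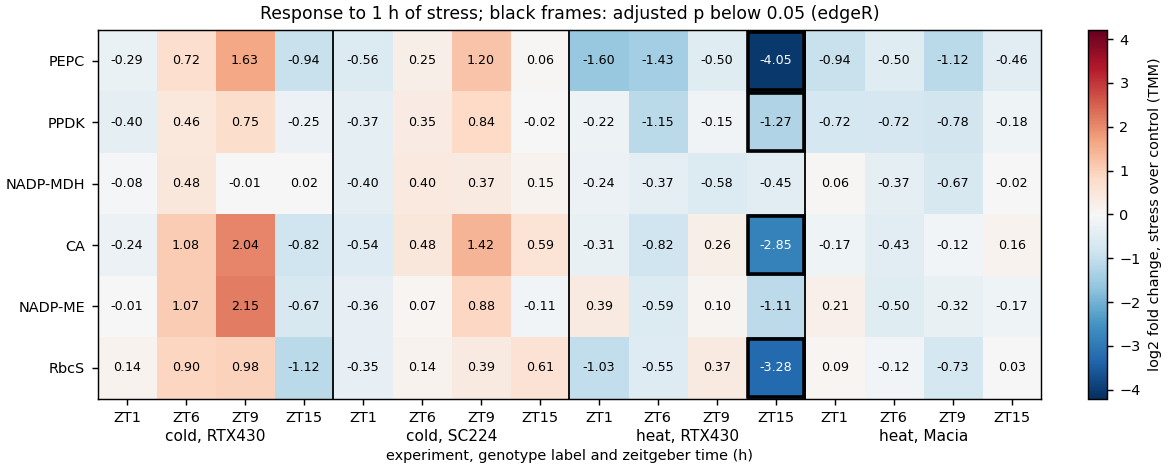
Log2 fold change of stress over control (TMM-scaled counts, edgeR) for each gene (rows) at each time in each experiment and genotype label (columns); red is higher and blue lower after stress, and black frames mark an adjusted p under 0.05. The 4 framed cells are PEPC, PPDK, CA and RbcS in heat RTX430 at ZT15.

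After 1 h at 42 °C, calls were made in heat RTX430 at ZT15, where 4 of the 6 genes fell (35.4% of all genes were called and 19.2% were called lower). The log2 fold change was -4.05 for PEPC, -3.28 for RbcS, -2.85 for CA and -1.27 for PPDK. The other 20 of 24 tests in heat RTX430 were not called. Without the mixed control the call of PPDK was lost (adjusted p = 0.12, edgeR). The median log2 fold change of the 6 genes at ZT15 was -2.06 and that of all genes -0.18. Library totals there were 2683311, 3002058 and 3296773 in the controls and 3145414, 4042971 and 3653119 after heat, and TMM factors averaged 1.58 in the controls and 1.2 after heat.

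PEPC at ZT15 held 1.13%, 1.18% and 0.219% of the counts in the controls and 0.050%, 0.0312% and 0.0471% after heat. The groups did not overlap, although control replicate 3 was far below the other controls. The mean share was 19.7 times higher in the controls, or 16.4 times without the mixed control, and the fold change was -4.05 (SE 0.87, adjusted p = 0.00040, edgeR), lower in all 3 stressed libraries. It was called in each alternative fit and in each fit that left out a library of these groups, between -3.66 and -4.56, and without the mixed control, replicate 1, it was -3.81 (adjusted p = 0.0015).

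RbcS held 1.01%, 1.21% and 0.159% in the controls and 0.0585%, 0.0601% and 0.0901% after heat, again without overlap and with control replicate 3 the lowest control. Its fold change was -3.28 (SE 1.02, adjusted p = 0.012, edgeR) and it was called in the same alternatives, at -3.09 (adjusted p = 0.028) without control replicate 1. CA held 0.225%, 0.220% and 0.0240% in the controls and 0.00766%, 0.00745% and 0.0434% after heat. Its groups overlapped, since stress replicate 3 was above control replicate 3. The fold change of CA was -2.85 (SE 0.87, adjusted p = 0.011, edgeR). It was -2.53 (adjusted p = 0.036) without control replicate 1 and -4.001 (adjusted p = 0.0041) without stress replicate 3, but it was not called without stress replicate 1 (adjusted p = 0.061), without stress replicate 2 (0.063) or in a fit to the 6 libraries alone (0.078).

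PPDK held 1.70%, 1.69% and 0.850% in the controls and 0.485%, 0.314% and 0.655% after heat, without overlap. Its fold change of -1.27 (SE 0.48, adjusted p = 0.038, edgeR) lost its call in 5 of the 6 fits that left out a library of these groups, all but that without control replicate 3. It was -1.10 (adjusted p = 0.12) without control replicate 1, -1.25 (adjusted p = 0.084) without the filter on low counts and -1.19 (adjusted p = 0.18) in the fit to the 6 libraries alone. NADP-ME held 0.398%, 0.604% and 0.357% in the controls and 0.158%, 0.164% and 0.180% after heat, without overlap, at -1.11 (SE 0.51, adjusted p = 0.085, edgeR). It was called with total-count scaling (-1.44, adjusted p = 0.0063), in DESeq2 (-1.15, adjusted p = 0.038) and without control replicate 3 (-1.38, adjusted p = 0.048), but not without control replicate 1 (-1.18, adjusted p = 0.11). NADP-MDH held 0.234%, 0.287% and 0.172% in the controls and 0.146%, 0.0964% and 0.170% after heat, at -0.45 (SE 0.38, adjusted p = 0.38, edgeR) and -0.42 (adjusted p = 0.49) without control replicate 1. Shares of 5 of the 6 genes, all but CA, were thus lower without overlap, where 34.5% of all genes were. For NADP-MDH the gap was narrow, with 0.170% in the highest stressed library against 0.172% in the lowest control. The same 5 were lower without the mixed control, but the share of all genes was not counted without it.

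**Figure D4:**
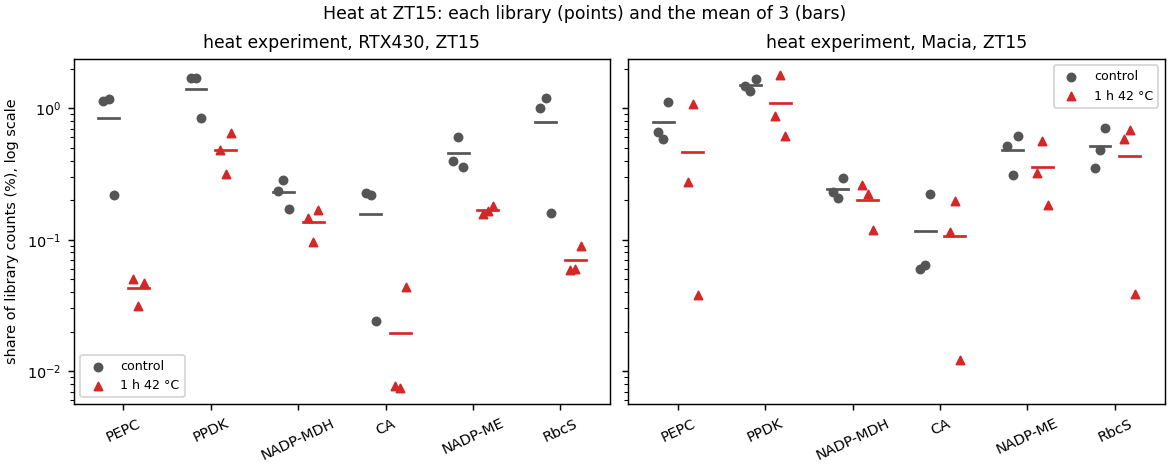
Share of library counts (%, log scale) of each gene at ZT15 in controls (grey circles) and after 1 h at 42 °C (red triangles), in libraries of the heat experiment labelled RTX430 (left) and Macia (right); points are libraries in replicate order and bars are means of 3. In RTX430 the stressed PEPC libraries lie between 0.0312% and 0.050%, below every control, whereas the Macia groups overlap for all 6 genes, with stress replicate 3 the lowest.

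The parts that single genes took of the counts of the 6 genes, which are not corrected for length, were not tested. In heat RTX430 at ZT15 PEPC took 19.7% ± 6.44 in the controls and 4.71% ± 0.781 after heat, and NADP-MDH 6.71% ± 2.55 and 14.9% ± 1.04, in both cases without overlap. The parts add to a fixed total, so a part can rise while the gene itself falls. The NADP-MDH share of the library had a mean of 0.231% in these controls and 0.137% after heat. The parts of the other 4 genes overlapped between the groups. RbcS took 17.9% ± 7.81 and 7.66% ± 1.23, CA 3.46% ± 1.85 and 1.87% ± 1.56, NADP-ME 13.4% ± 5.99 and 19.01% ± 4.78, and PPDK 38.8% ± 7.89 and 51.8% ± 4.56. Without the mixed control the control means were 17.6% for PEPC and 7.58% for NADP-MDH. The log2 ratio of the mesophyll genes (CA, PEPC, NADP-MDH and PPDK) to the bundle sheath genes (NADP-ME and RbcS) was 1.14 ± 0.208 in these controls, 1.10 without the mixed control, and 1.48 ± 0.414 after heat, and the libraries overlapped. PEPC, a mesophyll gene, and RbcS, a bundle sheath gene, were thus both among the genes that fell.

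At ZT1 the outcome depended on the scaling. In heat RTX430 the shares of all 6 genes were lower in every stressed library than in any control, as were those of 42.6% of all genes, and in Macia those of 4 genes were (CA, PEPC, NADP-ME and PPDK), with 45.8% of all genes. PEPC in heat RTX430 held 1.97%, 1.44% and 1.85% in the controls and 0.325%, 0.499% and 0.194% after heat. PPDK in Macia held 4.41%, 3.51% and 4.54% in the controls and 1.70%, 1.48% and 1.48% after heat. With TMM, whose factors averaged 0.533 and 0.513 in the stressed groups against 0.930 and 0.855 in the controls of RTX430 and Macia, 0 of 6 genes were called in either label (35.6% and 37.2% of all genes were). The TMM fold change of PEPC was -1.60 (SE 0.78, adjusted p = 0.11, edgeR) in RTX430 and that of PPDK was -0.72 (SE 0.48, adjusted p = 0.24) in Macia.

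With total-count scaling at ZT1, edgeR called PEPC (-2.37, adjusted p = 0.0068), PPDK (-1.02, adjusted p = 0.034) and NADP-MDH (-1.02, adjusted p = 0.0078) in heat RTX430, and PPDK (-1.42, adjusted p = 0.0041) in Macia. Over all genes, that scaling moved the median response from -0.12 to -0.92 in RTX430 and from -0.19 to -0.93 in Macia (log2). The fit to the 6 libraries alone also called PEPC in RTX430 (-1.61, adjusted p = 0.027). The other TMM fold changes in RTX430 at ZT1 were -0.31 for CA (SE 0.82), -0.24 for NADP-MDH (SE 0.38), 0.39 for NADP-ME (SE 0.50), -1.03 for RbcS (SE 0.94) and -0.22 for PPDK (SE 0.48). Without the stress library that carries ZT2 in some labels, the 4 calls of heat RTX430 were the same and none was at ZT1.

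At ZT6 in heat RTX430 all 6 fold changes were below 0, with a median of -0.71 against -0.03 over all genes. The shares of CA, PEPC, NADP-ME and PPDK were lower without overlap, for 4 of 6 genes where 12.0% of all genes were, and 0 of 6 were called in edgeR (13.3% of all genes). PEPC held 1.60%, 2.27% and 1.15% in the controls and 0.257%, 1.07% and 0.640% after heat, at -1.43 (SE 0.78, adjusted p = 0.24, edgeR). PPDK was at -1.15 (SE 0.48, adjusted p = 0.11, edgeR), and DESeq2 called it (-1.18, adjusted p = 0.022). At ZT9 the median of the 6 genes was -0.02, and 0 of 6 were called, where 4.07% of all genes were. The shares of NADP-MDH and PPDK were lower without overlap there, for 2 of 6 genes where 10.1% of all genes were.

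In Macia, 0 of 24 heat tests were called in edgeR, 0 passed at an unadjusted p under 0.05, and DESeq2 called 0. Among all genes 37.2%, 5.17%, 12.1% and 19.5% were called at ZT1, ZT6, ZT9 and ZT15. All 6 fold changes were below 0 at ZT6 and at ZT9, with medians of -0.46 and -0.70 against -0.08 and -0.15 over all genes. At ZT6 the share of PPDK was lower without overlap, as were those of 8.63% of all genes. At ZT9 those of PEPC, PPDK and NADP-MDH were, 3 of 6 genes where 21.1% of all genes were. PEPC at ZT9 held 0.231%, 0.352% and 0.333% in the controls and 0.118%, 0.208% and 0.0832% after heat. Its fold change of -1.12 (SE 0.77, adjusted p = 0.38, edgeR) was not called, nor were those of PPDK, -0.78 (SE 0.48, adjusted p = 0.32), and NADP-MDH, -0.67 (SE 0.38, adjusted p = 0.28). PEPC at ZT15 held 0.657%, 0.586% and 1.12% in the Macia controls and 0.277%, 1.08% and 0.0382% after heat. Stress replicate 2 lay among the controls, replicate 1 below them and replicate 3 far below. RbcS held 0.587%, 0.678% and 0.0389% after heat against 0.354%, 0.480% and 0.713% in the controls, and stress replicate 3 alone lay below them. The Macia fold changes at ZT15 were -0.46 for PEPC (SE 0.77), 0.03 for RbcS (SE 0.93), 0.16 for CA (SE 0.81) and -0.18 for PPDK (SE 0.48).

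The difference between the genotypes in the heat response at ZT15 was tested directly. Macia minus RTX430 gave 3.59 for PEPC (SE 1.12), 3.31 for RbcS (SE 1.36) and 3.01 for CA (SE 1.18), with adjusted p-values of 0.24, 0.42 and 0.39 (edgeR). Unadjusted p-values of these 3 were 0.0027, 0.020 and 0.015, and without the mixed control the differences were 3.36, 3.13 and 2.70, with adjusted p-values of 0.51, 0.70 and 0.71. With all libraries none of the 6 genes was called (0.0858% of all genes were), so the calls in RTX430 and their absence in Macia do not show that the labels differed. The joint test over the 4 times called 0 of 6 as well (0.483% of all genes), with 1 passing unadjusted in edgeR and 0 called by DESeq2. A difference of the heat response between times was called for 0 of 6 genes in RTX430 (11.2% of all genes) and 0 in Macia (10.7%). For PEPC in RTX430 the adjusted p of that test was 0.12 in edgeR, where 1 gene passed unadjusted, and both DESeq2 and total-count scaling called it. In Macia 0 passed unadjusted and DESeq2 called 0.

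Replicates differed in these genes together. The deviation of each library from the mean of its group (log2 CPM, TMM-scaled) had Pearson's r between 0.521 and 0.957 for the 15 pairs of genes over the 48 cold libraries, and between 0.652 and 0.891 over the 48 heat libraries. The highest values were those of PEPC and CA, 0.957 and 0.891. Against all genes the median r of each member lay between -0.061 and 0.0038. Still, over the cold libraries 7.42% (for PPDK) to 15.4% (for RbcS) of all genes had r above 0.5 with a member. Over the heat libraries the range was 8.02% (for PPDK) to 12.8% (for RbcS). Deviating together at r above 0.5 was therefore not particular to these genes. The median r of a member with the other members lay between 0.677 and 0.848, and the share of all genes that reached this level was not counted. These points share library and scaling, and are given as a description. Biological coefficients of variation, cold first and heat second, were 0.701 and 0.740 for RbcS, 0.576 and 0.653 for CA, 0.438 and 0.606 for PEPC, 0.495 and 0.409 for NADP-ME, 0.333 and 0.324 for NADP-MDH and 0.230 and 0.356 for PPDK, against medians of 0.275 and 0.316 over all genes. RbcS and CA varied most between replicates, and PPDK and NADP-MDH least.

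**Figure D5:**
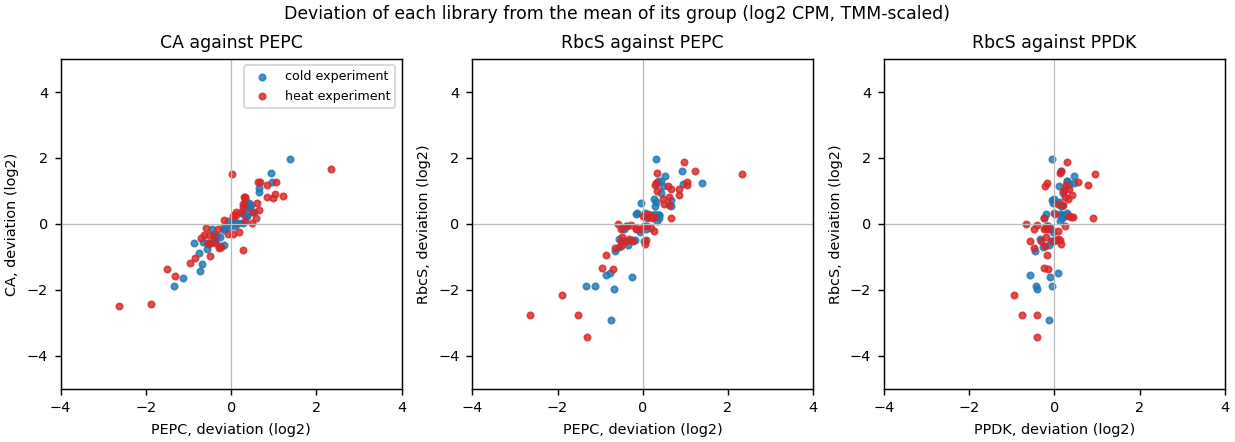
Deviation of each library from the mean of its group (log2 CPM, TMM-scaled) for CA against PEPC, RbcS against PEPC and RbcS against PPDK; each point is a library of the cold (blue) or heat (red) experiment, 48 of each. Libraries that were low for a gene were low for the other, with r = 0.957 and 0.891 for CA and PEPC, 0.846 and 0.890 for RbcS and PEPC, and 0.640 and 0.652 for RbcS and PPDK in the cold and heat experiments.

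Neighbouring identifiers were looked at because near-identical copies side by side can share reads. Over all libraries Sobic.003G234400, the second identifier after CA, held 16.01% as many counts as CA, and Sobic.007G166200, just before NADP-MDH, held 6.154% as many as NADP-MDH. Other neighbours within 3 identifiers held at most 6.56% of the count of the member. Whether these neighbours are copies of the members, or whether reads were shared between them, was not tested. The values of CA and NADP-MDH are uncertain in that respect, and the counts of the neighbours do not measure by how much.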

How the data were processed

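PolyA RNA from leaves was sequenced as single-end reads of 75 nt, per the labels' protocols. The authors deposited a table of raw counts (34129 genes, 96 libraries), used as deposited. HISAT2 and DESeq2 are named in the submitters' processing notes; the counter, genome build, annotation and use of strand are not given in the sources used here. The 6 genes, the tests and the lists were chosen with earlier results of these data known. The lists of other pathway genes were not used, since 0 of the 6 identifiers matched the reference gene table. The text names all 6 genes and, by rule, genes among the 3 closest in course to each.

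Each experiment was fitted apart over its 48 libraries and 16 groups with edgeR 4.0.16 in R 4.3.3 (filterByExpr, minimum count 10 and minimum total count 15; TMM; quasi-likelihood F-test; Benjamini-Hochberg adjusted p under 0.05 over 18248 genes for cold and 18648 for heat). The scripts were tested on simulated counts. Shares are counts divided by the library total. In these fits differences between groups are set against the spread between replicate libraries, estimated over all 16 groups of the experiment. The labels call the replicates biological but do not say which plants they came from, so whether that spread is one between plants is not known. Alternatives were total-count scaling, RLE size factors, DESeq2 1.42.0, no filter, the libraries concerned alone, the replicate number as a block, and each library left out.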

Additional observations from a re-analysis of the deposited data

Results flagged for a closer look

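With all libraries kept, shares moved in opposite directions at different times, without overlap between control and stressed libraries, for 2 genes in the cold experiment. The CA share in cold SC224 was 0.86 times the control mean at ZT1, with all 3 stressed libraries below all controls, and 1.25 times at ZT6 and 2.24 times at ZT9, with all 3 above. Shares lower without overlap at ZT1 were found for 5.84% of all genes, and shares higher for 4.85% at ZT6 and 4.44% at ZT9. On the TMM scale the CA values were -0.54 (SE 0.71), 0.48 (SE 0.71) and 1.42 (SE 0.73) at these times, none of them called (edgeR). The joint edgeR test of a difference of the response between times gave an adjusted p of 0.64 for CA in cold SC224, so the difference was not called. Without SC224 control replicate 1 at ZT1, the PEPC share there was also lower at ZT1 (0.78 times) and higher at ZT9 (1.86 times) without overlap. The TMM value of PEPC at ZT1 without that library was -0.63 and not called (adjusted p = 0.58, edgeR). The share of all genes was not counted without it.

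The NADP-ME share in cold RTX430 was 1.14 times the control mean at ZT1 and 1.77 times at ZT6, with all 3 stressed libraries above all controls, and 0.641 times at ZT15, with all 3 below. Shares without overlap in these directions were found for 16.6%, 4.9% and 5.11% of all genes. On the TMM scale the NADP-ME values were -0.01 (SE 0.61), 1.07 (SE 0.61) and -0.67 (SE 0.61), none of them called (edgeR). The same joint edgeR test gave an adjusted p of 0.22 for NADP-ME in cold RTX430 and did not call the difference.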

How the results depend on the processing

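No called fold change of a gene changed sign in any alternative (0 reversed). Of 1152 alternative values of single fold changes, 10 lost and 16 gained a call, and 89 of the 1104 for fold changes that were not called had the other sign. Total-count scaling gave 1 call for cold RTX430, 8 for heat RTX430, 1 for heat in Macia and 1 (PEPC) for the heat response differing between times in RTX430, against 0, 4, 0 and 0. DESeq2 gave 6 calls for heat RTX430 against 4, 6 for time of day in cold SC224 against 5 and 5 in heat RTX430 against 4. It gave 1 for cold RTX430, 1 for cold SC224, and 1 each for the response differing between times in cold RTX430, cold SC224 and heat RTX430. A fit to the libraries concerned alone gave 3 calls for heat RTX430 and 3 for time of day there, without PPDK. Leaving out a library gave 0 to 2 calls for cold RTX430, 2 to 5 for heat RTX430, 5 to 6 for time of day in cold SC224, 0 to 1 for the genotypes of the cold controls, and 0 to 1 for the response differing between times in cold RTX430 and in heat RTX430. The cause was not tested. Fits without the 2 controls that carried markers of other labels were chosen after seeing the data. They ended 2 calls of ZT15 against ZT1 in cold SC224 (NADP-MDH and RbcS). Without the mixed control the heat call of PPDK in RTX430 at ZT15 was lost too (-1.10, adjusted p = 0.12, edgeR). The median summed share over libraries was 3.81%, and 6.14% when the 100 other genes with the most counts were left out of the total. Same-numbered replicates did not consistently deviate together: of 46 pairs, 16 had r above 0.1 and 15 below -0.1, in a range from -0.522 to 0.692. With the replicate number as a block, the stress tests gave 0, 0, 4 and 0 calls for cold RTX430, cold SC224, heat RTX430 and Macia, and time of day 5, 6, 4 and 5. The lowest count of any of the 6 genes was 241, for CA in a stressed heat RTX430 library at ZT15.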
